A study of Mus musculus with 14 samples.

Results

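The septin genes were followed through a table of DNA methylation in mouse mammary adipose tissue. Their members were all autosomal CpG sites whose gene symbol was that of a septin, including symbols that a spreadsheet had turned into a date in September. This gave 164 of the 75761 sites and 7 of the 12627 gene symbols of the table. Sept9 held 139 of the sites, Sept5 held 11, Sept8 held 5, Sept7 held 4, Sept1 and Sept3 held 2 each, and Sept11 held 1. Every one of the 164 sites named a transcript that GENCODE M21 gives to the same septin, although 13 lay outside the span of the gene. All lay at the C of a CpG in mm10. No site carried the symbol of Sept2, Sept4, Sept6, Sept10, Sept12 or Sept14.

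Reduced representation bisulfite sequencing (RRBS) had been run on the mammary fat pad on the side away from the tumor in 14 female wild-type (wt) C57BL/6N mice (C57BL/6NCrl in the methods of the study), about 35 weeks old. CON-LFD mice (n = 3) stayed on a control diet with 10% of calories from fat, and the others were made obese for 15 weeks on a diet with 60% of calories from fat (diet-induced obesity, DIO). DIO-HFD mice (n = 4) stayed on the high-fat diet, DIO-LFD mice (n = 3) were moved to the low-fat diet, and DIO-VSG mice (n = 4) had a vertical sleeve gastrectomy, which removes most of the stomach, and the low-fat diet. All groups had surgery, sham or sleeve, all were injected with E0771 mouse mammary tumor cells 7 weeks later, and tissue was taken after another 4 weeks. The labels also list E0771 as the cell line of these samples, although the tissue was the uninjected pad. Whole tissue was used, so a change in methylation within cells and a change in the share of cell types cannot be told apart. Diet and sleeve surgery both differ between DIO-VSG and DIO-HFD mice, and only the surgery between DIO-VSG and DIO-LFD mice.

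Septins are GTP-binding proteins that join into filaments and rings at the cell cortex, where they serve as scaffolds and barriers, and they take part in the division of the cell body. Sept9 is transcribed from several alternative starts that give long and short protein isoforms, and methylation of the human SEPT9 promoter is used as a blood marker of colorectal cancer. Sept7 is the central subunit of most septin filaments, Sept1 is known from lymphocytes, Sept3 from neurons, Sept5 from neurons and platelets, and Sept8 and Sept11 are more widely expressed partners. Methylation of CpGs in a promoter often goes with low activity of that promoter, but expression was not measured in the data used here.

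Stretches of both signs are printed from mm10, plus strand, to show the CpGs measured at Sept9 starts, in Sept9 introns and in Sept7 and Sept1, with the measured CpGs in capitals. The first lies upstream of the first Sept9 start (chr11:117199244-117199471), the second spans the next Sept9 start (chr11:117232270-117232299), and the third lies upstream of the start of a short Sept9 isoform (chr11:117332229-117332286). The next 3 lie in Sept9 introns, at chr11:117312832-117312873, chr11:117317501-117317554 and chr11:117350139-117350231. A label of higher or lower is the sign of the difference between the DIO-VSG and DIO-HFD means around the stretch. Around the stretch labelled higher, the groups overlapped when all mice were used. The Sept7 stretch is in an intron near the start (chr9:25252706-25252735), and the Sept1 stretch is in a coding exon of a gene on the minus strand (chr7:127214951-127214980).
Sept9 first start: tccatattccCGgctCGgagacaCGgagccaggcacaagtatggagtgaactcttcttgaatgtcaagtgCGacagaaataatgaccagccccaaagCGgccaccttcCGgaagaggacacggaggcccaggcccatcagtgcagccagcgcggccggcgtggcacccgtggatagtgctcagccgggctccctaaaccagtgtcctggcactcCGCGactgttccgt
Sept9 second start: gctgcaCGctggaCGctggaCGgctggggc
Sept9 short-isoform start: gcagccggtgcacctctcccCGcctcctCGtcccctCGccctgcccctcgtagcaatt
Sept9 intron, higher in DIO-VSG: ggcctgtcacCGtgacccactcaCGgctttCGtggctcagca
Sept9 intron, low level: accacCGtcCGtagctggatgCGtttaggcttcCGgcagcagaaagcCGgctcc
Sept9 late intron, lower in DIO-VSG: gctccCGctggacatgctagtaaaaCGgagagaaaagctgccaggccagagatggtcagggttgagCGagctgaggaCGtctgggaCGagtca
Sept7 intron: ctcagccccCGgcCGccggccatcccggcc
Sept1 coding exon: cttcgtccttctCGCGaatcaacttttcag

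Of the 164 sites, 49 were promoter sites in the table (29.9%, against 25.8% of all sites) and 22 lay in a CpG island (13.4%, against 23.8%). By GENCODE, 134 lay in introns, 15 in untranslated exons, 2 in coding exons and 13 outside the span of the gene. Sept9 had the second highest number of sites of any symbol in the table, and 131 of its 139 sites lay within the gene (chr11:117199661-117362325, plus strand). A minimum SD of the level of 0.05 as a fraction over the 14 mice, named in the methods of the study, left 150 septin sites for testing, 128 of them in Sept9. The 14 sites left out had mean levels from 11.1% to 92.8%. The read depth behind each level is unknown, because the table gives fractions and no coverage.

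One mouse stood apart from its group before any septin was considered. Over all 65610 tested sites, DIO-HFD replicate 1 had a mean level of 66.2%, whereas the other 3 DIO-HFD mice had 57.2%, 57.6% and 57.6%. The DIO-VSG mice lay between 64.2% and 64.8%. At the septin sites this mouse was nearer to the DIO-VSG mean than to the mean of the other DIO-HFD mice at 130 of 150 sites (86.7%, against 76.7% of all tested sites). No label sets it apart, and whether its label is right could not be checked from methylation levels, so every DIO-HFD mean is uncertain to that extent. The main results are given with it and again without it. As it was picked out by its levels, the values without it do not replace those with it.

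Relative to DIO-HFD, the mean methylation level over the 150 tested septin sites, 128 of them in Sept9, was higher in each of the other groups, by 4 to 6 percentage points with all mice. The mean level over the 150 sites was 57.9%, 58.0% and 53.3% in the CON-LFD mice, 60.4%, 48.4%, 49.3% and 50.1% in the DIO-HFD mice, 58.8%, 56.1% and 56.6% in the DIO-LFD mice, and 57.7%, 57.5%, 58.1% and 58.7% in the DIO-VSG mice. The first DIO-HFD mouse was the highest of all 14, and the other 3 DIO-HFD mice were the lowest. The group means were 56.4% ± 2.66 (SD, n = 3), 52.1% ± 5.60 (n = 4), 57.2% ± 1.46 (n = 3) and 58.0% ± 0.523 (n = 4). Differences from DIO-HFD were 4.34 percentage points in CON-LFD, 5.10 in DIO-LFD and 5.91 in DIO-VSG, and they were 7.12, 7.88 and 8.69 without DIO-HFD replicate 1. The 3 comparisons share the DIO-HFD mice. Over the 22 tested sites outside Sept9 the differences were 2.08, 2.79 and 1.66 percentage points (5.43, 6.15 and 5.01 without that mouse), so the values over all septin sites are mostly those of Sept9. All tested sites of the table also had a higher mean in DIO-VSG than in DIO-HFD, by 4.89 percentage points (7.08 without DIO-HFD replicate 1). In CON-LFD and DIO-LFD they were higher than in DIO-HFD by 3.33 and 3.43 percentage points (5.52 and 5.62 without that mouse). The difference between DIO-VSG and DIO-HFD over the septin sites was larger than that of all sites by 1.02 percentage points (1.61 without that mouse), whereas over the septin sites outside Sept9 it was smaller than that of all sites. In CON-LFD and DIO-LFD the septin difference from DIO-HFD was larger than that of all sites by 1.01 and 1.67 (1.60 and 2.26 without that mouse). The septin mean minus the mean over all tested sites overlapped between DIO-HFD and each other group with all mice, with an SD of 1.29 in DIO-HFD.

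**Figure D1:**
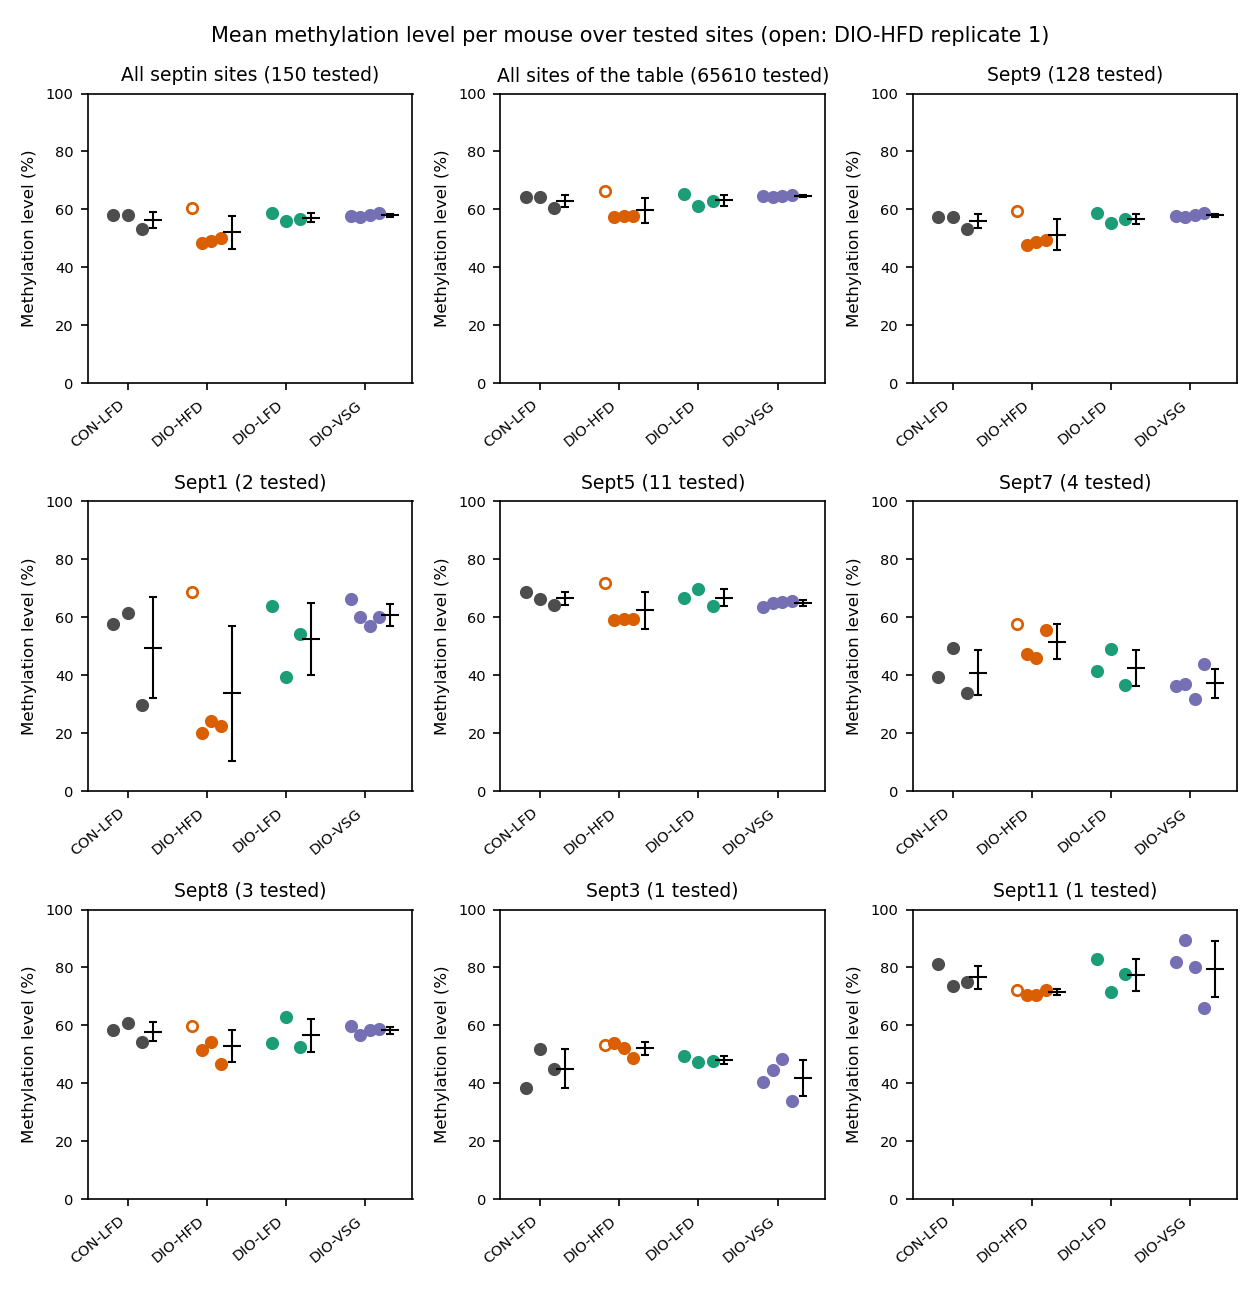
Mean methylation level (%) per mouse over the tested sites of all septins, of the whole table and of each septin gene, by group; points are mice, bars the mean ± SD, and the open circle is DIO-HFD replicate 1. The 3 other DIO-HFD mice sit at 48.4% to 50.1% over all septin sites, below every other mouse, and for Sept7 and Sept3 the DIO-HFD mean is the highest of the group means.

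In the limma fit across all 65610 tested sites, with Benjamini-Hochberg adjustment, 0 of 150 septin sites had an adjusted p under 0.05 in any of the 4 comparisons. Of all sites in the table, 0.0% were called between CON-LFD and DIO-HFD, and 0.00305% in each of the 3 other comparisons. The smallest adjusted p of a septin site in these comparisons was 0.611, 0.494, 0.150 and 0.945. At an unadjusted p under 0.05, 15 septin sites separated CON-LFD from DIO-HFD (10%, against 7.76% of all sites), with 12 higher in CON-LFD (6.0% of all sites) and 3 lower (1.76%). Between DIO-LFD and DIO-HFD there were 17 such sites (11.3%, against 10.1%), 16 higher in DIO-LFD (7.92% of all sites) and 1 lower (2.16%). Between DIO-VSG and DIO-HFD there were 61 (40.7%, against 25.0%), with 47 higher in DIO-VSG (31.3%, against 20.2%) and 14 lower (9.33%, against 4.85%). Of these 61 sites, 58 were in Sept9 (45 higher, 13 lower), and 3 were among the 22 sites of the other septins. Between DIO-VSG and DIO-LFD there were 3 (2%, against 3.98%), 2 higher in DIO-VSG (2.42% of all sites) and 1 lower (1.55%). Neighbouring CpGs lie on the same fragments, so these sites are not separate observations.

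The mouse that stood apart decided most of these calls. Without DIO-HFD replicate 1, the limma adjusted p passed 0.05 at 39 septin sites in the comparison of CON-LFD with DIO-HFD, 33 of them higher (9.67% of all sites) and 6 lower (2.3%) in CON-LFD. In DIO-LFD it passed at 45, 40 higher (12.1% of all sites) and 5 lower (2.42%). In DIO-VSG it passed at 82, or 54.7% of the septin sites, 63 higher (28.8% of all sites) and 19 lower (5.62%). Between DIO-VSG and DIO-LFD it passed at 0 (0.00457% of all sites), with 5 septin sites (3.33%, against 6.77% of all sites) at an unadjusted p under 0.05. Part of the difference was common to all sites. The median difference in M, the log2 ratio of methylated to unmethylated share, between DIO-VSG and DIO-HFD was 0.56 over the septin sites and 0.48 over all sites. When each mouse was centred on its median, 42 septin sites had an unadjusted p under 0.05, of which 20 were higher (8.64% of all sites) and 22 lower (11.4% of all sites) in DIO-VSG. With all mice, the DIO-VSG and DIO-HFD levels did not overlap at 18 septin sites, 11 higher (5.55% of all sites) and 7 lower in DIO-VSG (2.03% of all sites). Without DIO-HFD replicate 1 they did not overlap at 79 higher (38.5% of all sites) and 31 lower sites (7.95% of all sites).

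Sept9, the gene with most of the sites, had stretches in which the DIO-VSG mean was above the DIO-HFD mean and others in which it was below. Its mean over 128 tested sites was 56% ± 2.42 in CON-LFD, 51.3% ± 5.41 in DIO-HFD (48.6% ± 0.897 without replicate 1), 56.8% ± 1.73 in DIO-LFD and 57.9% ± 0.594 in DIO-VSG. Sites at most 1000 bp apart were joined into blocks, and 18 blocks of Sept9 held 3 or more tested sites, 121 in all. In 14 blocks the DIO-VSG mean was above the DIO-HFD mean and in 4 it was below. The block differences ran from -12.1 to 21.6 percentage points, or from -15.3 to 30.4 without DIO-HFD replicate 1. With all mice, the groups did not overlap in 1 block that was higher and 1 that was lower in DIO-VSG. Without that mouse they did not overlap in 12 higher and 4 lower blocks. Blocks of other genes were not counted. Of all single sites, 71.3% were higher in DIO-VSG with all mice, and 5.55% higher and 2.03% lower did not overlap. Without that mouse, 38.5% higher and 7.95% lower sites did not overlap. These are shares of single sites, whereas a block is a mean over several sites. They are therefore no background for the block counts.

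**Figure D2:**
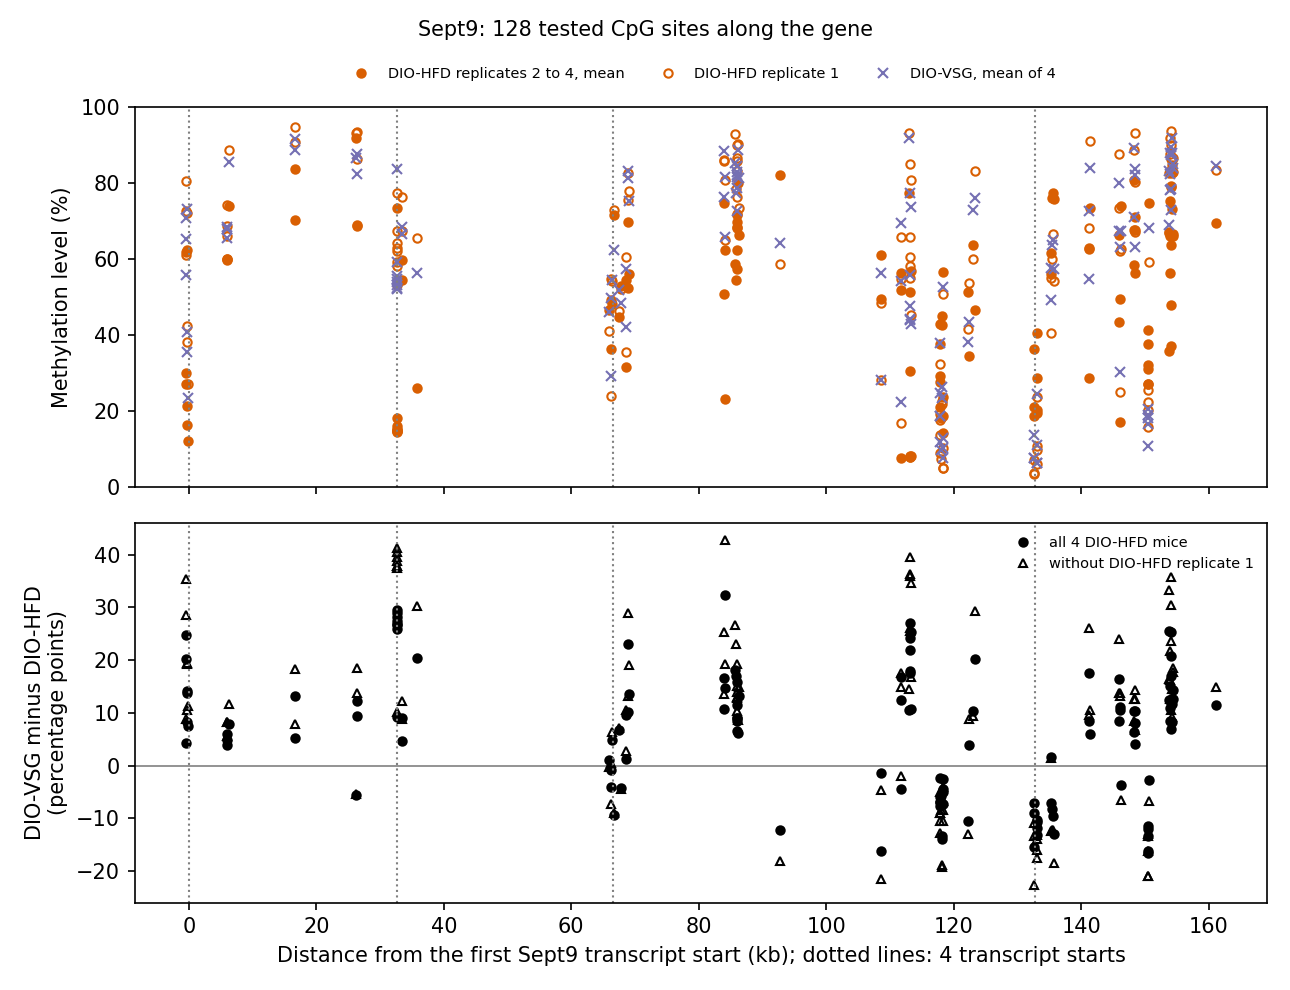
The 128 tested Sept9 sites by distance from the first transcript start (kb), with the level (%) in DIO-HFD and DIO-VSG mice in the upper panel and the difference of means (percentage points) with and without DIO-HFD replicate 1 in the lower panel; dotted lines are 4 transcript starts. Block differences range from -12.1 to 21.6 percentage points, and DIO-HFD replicate 1 follows the DIO-VSG mice at most sites.

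The 4 transcript starts of Sept9 that had promoter sites differed from one another. At the first start (ENSMUST00000093907.10, 7 tested sites), the DIO-HFD mice had mean levels of 56.3%, 29.1%, 35.0% and 35.1%, and the DIO-VSG mice 52.8%, 50.6%, 50.3% and 54.9%. CON-LFD mice had 51.1%, 52.7% and 41.0%, and DIO-LFD mice 59.5%, 40.4% and 48.0%. All mice of these groups were above DIO-HFD replicates 2 to 4, and DIO-HFD replicate 1 was above all but one of them. The difference between DIO-VSG and DIO-HFD was 13.3 percentage points, and 19.1 without that mouse.

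The second start (ENSMUST00000106354.8, 10 tested sites) had the widest gap of any Sept9 block. The means were 64.9%, 30.4%, 27.4% and 31.3% in DIO-HFD, 63.2%, 59.7%, 53.1% and 64.4% in DIO-VSG, 55.3%, 59.2% and 43.0% in CON-LFD and 53.0%, 51.1% and 51.0% in DIO-LFD. The DIO-VSG mice exceeded the DIO-HFD mice by 21.6 percentage points on average but overlapped with them through replicate 1, and by 30.4 without it. Of the 10 sites, 8 were higher at an unadjusted p under 0.05 (20.2% of all sites), and the same number passed the adjusted threshold without DIO-HFD replicate 1 (28.8% of all sites). At the site on the start itself, chr11:117232283, DIO-HFD levels were 59.4%, 17%, 12.7% and 16.1% and DIO-VSG levels were 55.9%, 54.3%, 42.5% and 60.1%. The difference in M was 1.85 (SE 0.60, limma adjusted p = 0.150), and 2.59 (SE 0.34, limma adjusted p = 0.00112) without that mouse.

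At the third start (ENSMUST00000019038.14, 6 tested sites) the groups were close. The mean was 48.1% ± 2.50 in CON-LFD, 49.4% ± 1.59 in DIO-HFD, 46.2% ± 4.41 in DIO-LFD and 49.0% ± 0.989 in DIO-VSG. All 6 of these sites lay in the sequence CCGG, which the restriction enzyme of RRBS cuts.

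The start of a short isoform (ENSMUST00000106349.1, 7 tested sites) was little methylated and went the other way. The DIO-HFD mice had 9.27%, 20.3%, 33.6% and 25.4%, while the DIO-VSG mice had 9.51%, 12.7%, 10.8% and 11.4%. CON-LFD mice had 14%, 10.6% and 14.2%, and DIO-LFD mice 11.5%, 17.3% and 14.3%. DIO-HFD replicates 2 to 4 were above all 10 mice of the other groups, and DIO-HFD replicate 1 was below all of them. The difference between DIO-VSG and DIO-HFD was -11 percentage points, and -15.3 without replicate 1, where all 7 sites passed the limma adjusted threshold as lower in DIO-VSG (5.62% of all sites). With all mice 3 of the 7 were lower at an unadjusted p under 0.05 (4.85% of all sites).

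**Figure D3:**
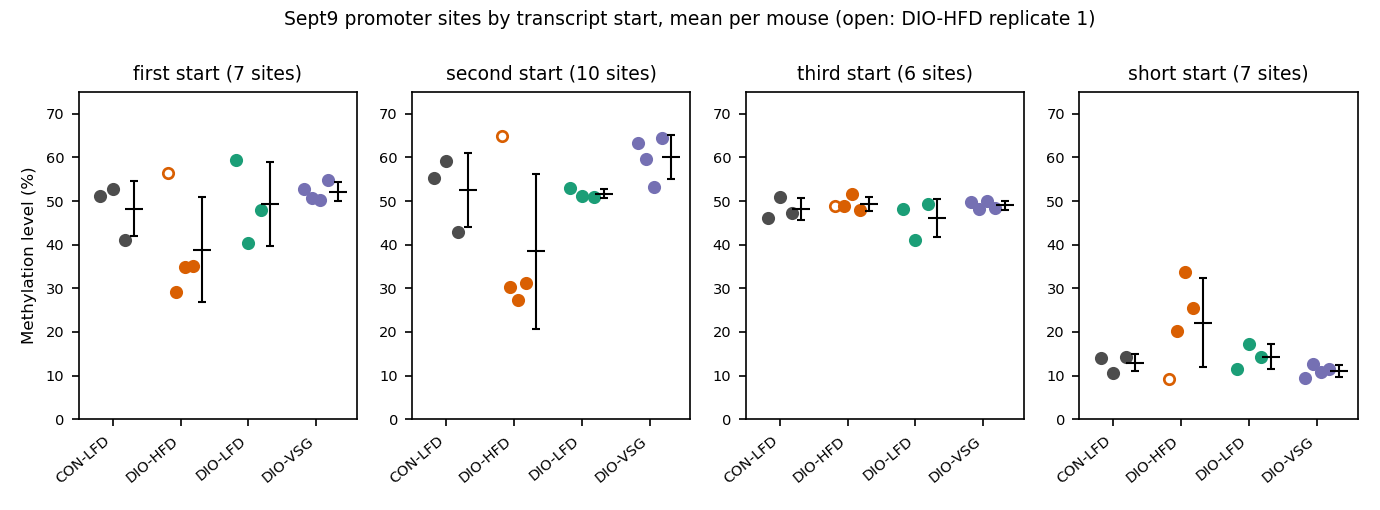
Mean level (%) per mouse over the promoter sites at 4 Sept9 transcript starts, with the mean ± SD of each group beside the points and DIO-HFD replicate 1 as an open circle. Replicates 2 to 4 of DIO-HFD are low at the first and second starts (27.4% to 35.1%), near the other groups at the third (47.9% to 51.6%), and high at the short-isoform start (20.3% to 33.6%).

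Within Sept9 introns, the blocks that were higher in DIO-VSG had intermediate to high levels. The block at chr11:117353469-117354074 (13 tested sites) averaged 84.9%, 64.9%, 62.7% and 60.9% in the DIO-HFD mice and 84.4%, 79.5%, 83% and 84.9% in the DIO-VSG mice, a difference of 14.6 percentage points. Without DIO-HFD replicate 1 the difference was 20.1, and 12 of the 13 sites were higher at the limma adjusted threshold (28.8% of all sites). The block at chr11:117312609-117313023 (8 tested sites) averaged 68.0%, 28.0%, 30.7% and 34.6% in DIO-HFD and 61.9%, 56%, 62.3% and 58.7% in DIO-VSG. That is a difference of 19.4 percentage points, or 28.6 without replicate 1. At chr11:117283600-117283752 (4 tested sites) the difference was 18.6, or 25.3 without that mouse.

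A single block was above all DIO-HFD mice, replicate 1 included. At chr11:117311351-117311445 (3 tested sites) the DIO-VSG mice had 47.4%, 49.6%, 49.1% and 49.0% and the DIO-HFD mice 45.9%, 37.2%, 36.3% and 42.5%. The DIO-LFD mice, at 53.1%, 40.8% and 45.8%, overlapped with both.

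The blocks that were lower in DIO-VSG had low levels, apart from one. In the intron block at chr11:117350144-117350253 (6 tested sites) the DIO-VSG mice had 23.4%, 26.9%, 27.0% and 25.1%, below the 28.5%, 42.7%, 39.4% and 40.1% of the DIO-HFD mice. The groups did not overlap with or without replicate 1, the difference was -12.1 percentage points (-15.1 without that mouse), and 5 of the 6 sites were lower at an unadjusted p under 0.05 (4.85% of all sites). CON-LFD mice had 33.5%, 27.0% and 44.6%, and DIO-LFD mice 26.6%, 37.6% and 33.9%, so the lowest mouse of each of these groups was at the level of the DIO-VSG mice. The block at chr11:117317506-117317988 (12 tested sites) averaged 17.9%, 34.6%, 28.9% and 31.0% in DIO-HFD and 18.3%, 22.7%, 23.0% and 21.1% in DIO-VSG, a difference of -6.82 (-10.2 without replicate 1). The remaining one, at chr11:117334856-117335344 (5 tested sites), stood at 65.9% ± 7.87 in DIO-HFD and 58.7% ± 4.68 in DIO-VSG.

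The sites with the smallest p between DIO-VSG and DIO-HFD were all in Sept9 introns. At chr11:117268607 the DIO-VSG levels were 81.4%, 78.7%, 83.9% and 80.9%, above the DIO-HFD levels of 75.7%, 53.4%, 47.4% and 56.3%. The difference in M was 1.56 (SE 0.38, limma adjusted p = 0.150), and 1.93 (limma adjusted p = 0.00139) without DIO-HFD replicate 1. At chr11:117332663, 320 bp past the short-isoform start, the DIO-VSG levels were 6.2%, 8.2%, 5.8% and 5.8% and the DIO-HFD levels 9.9%, 14.5%, 26.5% and 17.9%. The groups did not overlap and the difference in M was -1.39 (SE 0.34, limma adjusted p = 0.150), or -1.65 without that mouse (limma adjusted p = 0.00253). At chr11:117283737 the DIO-HFD levels were 65.1%, 23.2%, 18.6% and 27.5% against 68.1%, 63%, 65.7% and 66.8% in DIO-VSG. Here the groups overlapped, with a difference in M of 1.99 (SE 0.51, limma adjusted p = 0.150) and of 2.64 without replicate 1 (limma adjusted p = 0.000822).

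The sites with the smallest p for CON-LFD and DIO-LFD against DIO-HFD were also in Sept9, and none passed the adjusted threshold when all mice were used. The sites with the smallest p for CON-LFD were chr11:117353849, chr11:117283737 and chr11:117353503. At chr11:117353849 the CON-LFD levels of 94.4%, 91.2% and 87.3% were all above the DIO-HFD levels of 84.8%, 68.4%, 77.6% and 73.9%, with a difference in M of 1.59 (SE 0.42, limma adjusted p = 0.611). At chr11:117283737 and chr11:117353503 the differences in M were 1.54 and 1.22, and the groups overlapped through DIO-HFD replicate 1. The 3 sites for DIO-LFD were chr11:117353724, chr11:117283737 and chr11:117311391, with differences in M of 1.70, 1.65 and 1.37 (limma adjusted p = 0.494 each) and overlapping groups. All 6 of these tests passed the adjusted threshold without DIO-HFD replicate 1, with limma adjusted p from 0.00609 to 0.0257. Groups did not overlap at 3 septin sites that were higher in CON-LFD (3.28% of all sites) and 1 that was lower (1.40% of all sites). Without DIO-HFD replicate 1 these counts were 57 and 13. The matching shares of all sites are not given here, so the 2 counts cannot be read as a trait of the septins.

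The surgery was set against the low-fat diet alone in the comparison of DIO-VSG with DIO-LFD mice, and few septin sites differed. The mean over the septin sites was higher in DIO-VSG by 0.808 percentage points, with overlapping groups. The difference was -0.656 after the mean of each mouse over all tested sites was subtracted, and 1.64 and 0.258 without DIO-LFD replicates 1 and 2. The 3 sites with the smallest p were chr11:117350144, chr11:117311351 and chr11:117353882. At chr11:117350144 the DIO-VSG levels were 15.4%, 17.8%, 19% and 20.8% and the DIO-LFD levels 25.2%, 33.3% and 30%, which did not overlap (difference in M -0.88, SE 0.32, limma adjusted p = 0.945). At the other sites DIO-VSG was higher without overlap, with differences in M of 0.68 and 0.95 (limma adjusted p = 0.945 each). Groups did not overlap at 10 septin sites higher in DIO-VSG (4.93% of all sites) and at 3 lower (2.81% of all sites). Every DIO-VSG mouse was above every DIO-LFD mouse in the Sept9 blocks at the second start and at chr11:117283600-117283752. The differences of means there were 8.39 and 3.99 percentage points, and in the other septin blocks the 2 groups overlapped.

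Sept7, the central filament subunit, had a lower mean level in every DIO-VSG mouse than in every DIO-HFD mouse, as did Sept3 at its single tested site. Over its 4 sites, all promoter and CpG island sites in an intron, the DIO-HFD mice had 57.8%, 47.2%, 45.8% and 55.7% and the DIO-VSG mice 36.2%, 36.9%, 31.8% and 44.1%. The difference was -14.4 percentage points, and -12.4 without DIO-HFD replicate 1. Most of it came from chr9:25252715, 278 bp past the start that the table names. Levels there were 85.5%, 58.1%, 39.3% and 72.6% in DIO-HFD, 12.1%, 6.8%, 20.8% and 28.6% in DIO-VSG, 21.1%, 73.8% and 9.8% in CON-LFD and 26.0%, 67.3% and 14.3% in DIO-LFD. One mouse each of CON-LFD and DIO-LFD lay among the DIO-HFD mice, and the others lay among the DIO-VSG mice. The difference between DIO-VSG and DIO-HFD was -46.8 percentage points and -3.31 in M (SE 1.02, limma adjusted p = 0.150), and -2.79 in M without replicate 1 (limma adjusted p = 0.0663). The CpG 4 bp further on, chr9:25252719, had 44.6% ± 6.44 in DIO-HFD and 34.1% ± 19.1 in DIO-VSG, and its DIO-VSG levels of 36.4%, 43.3%, 6.7% and 50% did not follow those of its neighbour.

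**Figure D4:**
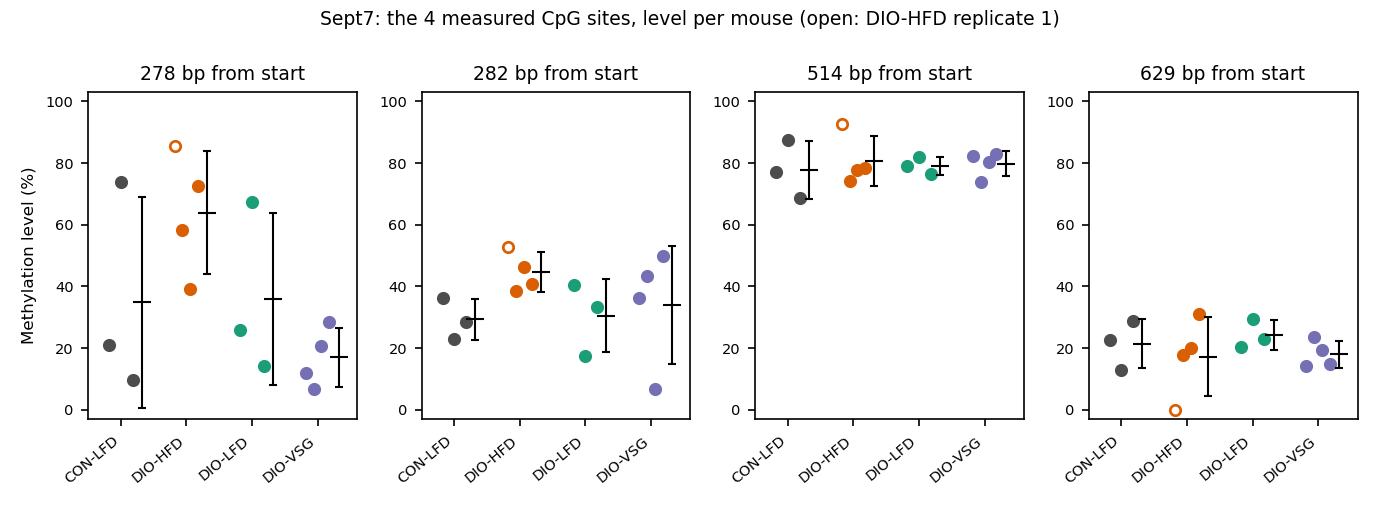
Level (%) per mouse at the 4 measured Sept7 CpGs, ordered by distance from the transcript start, with group means ± SD and DIO-HFD replicate 1 as an open circle. At 278 bp the DIO-VSG mice sit at 6.8% to 28.6% and the DIO-HFD mice at 39.3% to 85.5%, while the sites at 514 bp and 629 bp show no such gap.

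Sept1, the lymphocyte septin, had 2 adjacent sites in a coding exon, chr7:127214963 and chr7:127214965, and the widest difference in mean among the genes. The DIO-HFD mice had 68.7%, 19.9%, 24.4% and 22.4% and the DIO-VSG mice 66.3%, 60.0%, 57.2% and 60.0%. CON-LFD mice had 57.8%, 61.4% and 29.6%, and DIO-LFD mice 64.0%, 39.4% and 54.3%. The DIO-HFD mouse that stood apart was the highest of all, and the other 3 were the lowest. The difference between DIO-VSG and DIO-HFD was 27.0 percentage points, and 38.6 without replicate 1. At chr7:127214965 the difference in M was 1.72 (SE 0.60, limma adjusted p = 0.151), and 2.36 without that mouse (limma adjusted p = 0.00314).

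The other septins differed less. Sept5 (11 tested sites) averaged 66.5% ± 2.25 in CON-LFD, 62.5% ± 6.36 in DIO-HFD, 66.9% ± 2.83 in DIO-LFD and 64.9% ± 0.980 in DIO-VSG. Without replicate 1 the DIO-HFD mean was 59.3% ± 0.232, below every mouse of the other groups. Its site nearest to a start, chr16:18630019, was at or near full methylation, from 75% to 100%, with a difference in M between DIO-VSG and DIO-HFD of 0.37 (SE 1.24, limma adjusted p = 0.872, or 0.585 without replicate 1). Another 50 sites of the table lie in the span of Sept5 under the symbol of Gp1bb, its neighbour, and were not counted. Sept8 (3 tested sites) averaged 53.0% ± 5.52 in DIO-HFD (50.8% ± 3.95 without replicate 1) and 58.3% ± 1.16 in DIO-VSG, and its site nearest to a start, chr11:53519802, differed by -0.13 in M (SE 0.34, limma adjusted p = 0.838, or 0.734 without replicate 1). A Sept8 site upstream of the gene, chr11:53507147, had 91.6%, 69.6%, 72.8% and 65.6% in DIO-HFD and 86.1%, 88.3%, 84.6% and 86.5% in DIO-VSG, again with replicate 1 above and the other DIO-HFD mice below the DIO-VSG mice.

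Sept3, known from neurons, had a single tested site, chr15:82275018 in an untranslated exon. The DIO-VSG levels of 40.5%, 44.6%, 48.4% and 34.0% were all below the DIO-HFD levels of 53.1%, 54.0%, 52.4% and 48.6%. The difference in M was -0.59 (SE 0.27, limma adjusted p = 0.201), and -0.56 without replicate 1 (limma adjusted p = 0.125). The other Sept3 site, chr15:82275115, was under the SD filter and went the other way, with means of 55.4% in DIO-HFD and 61.2% in DIO-VSG and overlapping groups. Sept11 had a single site, chr5:93094445, at 72.4%, 70.6%, 70.4% and 72.3% in DIO-HFD and 81.8%, 89.5%, 80% and 66.2% in DIO-VSG, which overlapped (difference in M 0.70, SE 0.39, limma adjusted p = 0.258). Without DIO-HFD replicate 1 the difference in M was 0.73 (limma adjusted p = 0.196).

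Among the Sept9 blocks, those lower in DIO-VSG had mostly low levels, and the septin sites were therefore counted by level. Among the 24 tested septin sites with a mean level under 30%, DIO-VSG was above DIO-HFD at 5, with a median difference of -7.01 percentage points (4 sites and -10.5 without DIO-HFD replicate 1). Over the whole table, 54.8% of such sites were higher in DIO-VSG, with a median of 1.34 (57.3% and 2.38 without that mouse). Of the 24 sites, 18 lay in 3 Sept9 blocks (8, 6 and 4 sites), and all of these were lower in DIO-VSG, so the count rests on few stretches. Of the 6 low sites elsewhere, 5 were higher in DIO-VSG and 1, in Sept5, was lower. Only 2 of the 24 lay outside Sept9. From 30% to 70% 52 of 77 septin sites were higher (67.5%, the same share as over all sites, with a median of 6.67 against 4.83). Above 70% 44 of 49 were (89.8%, against 83.2% of all sites, with a median of 9.04 against 6.35). Without DIO-HFD replicate 1, 54 of the 77 (70.1%, against 68.9% of all sites) and 46 of the 49 (93.9%, against 85.5%) were higher. The median SD of a septin site within a group was 9.2 percentage points in DIO-HFD, 6.69 in CON-LFD, 6.38 in DIO-LFD and 3.64 in DIO-VSG. Without replicate 1 it was 4.28 in DIO-HFD, below CON-LFD and DIO-LFD. Over all tested sites it was 8.22 in DIO-HFD (5.11 without that mouse), 5.58, 6.34 and 4.28 in the same order.

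**Figure D5:**
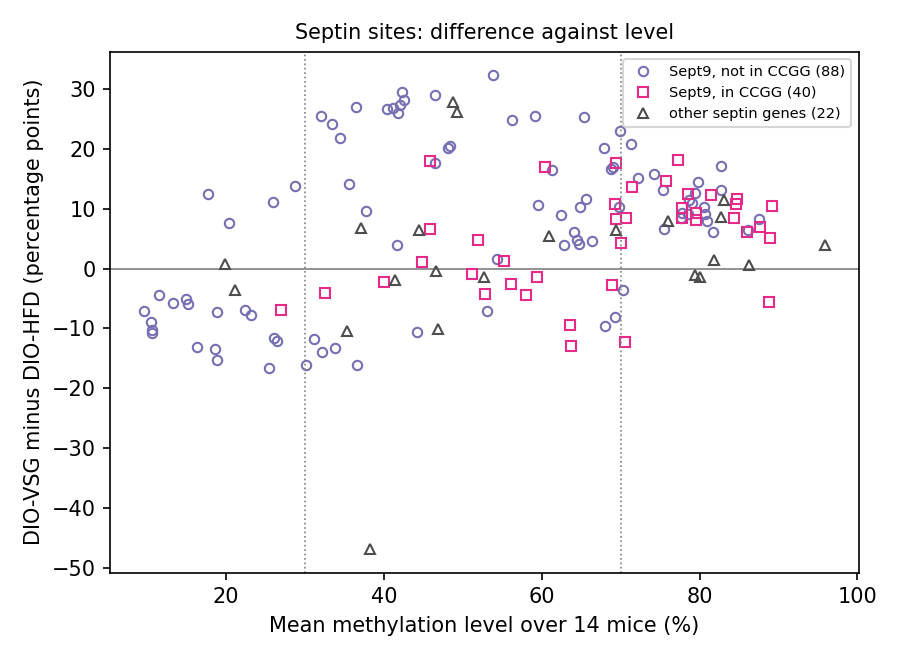
Difference between DIO-VSG and DIO-HFD means (percentage points) against the mean level over 14 mice (%) for the 150 tested septin sites; circles and squares are Sept9 sites outside and in CCGG, triangles are other septins, and dotted lines mark 30% and 70%. Of the 24 sites under 30%, 5 lie above 0, whereas 44 of the 49 sites over 70% do.

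Sites were also grouped by the sequence around them. Of the septin promoter sites tested, 19 lay in CCGG and had a median level of 51.9%, and the other 25 had 37.1%. Their median differences between DIO-VSG and DIO-HFD were 1.07 and 7.59 percentage points (4.22 and 11.9 without DIO-HFD replicate 1). In Sept9 these were 4.23 over 9 sites and 13.8 over 21 (6.32 and 19.2 without that mouse). The other septins did not show this contrast, with -0.148 over 10 sites and -1.55 over 4 (3.59 and 0.368 without that mouse). The promoter sites of the whole table gave 51.6% in CCGG and 35.8% elsewhere, with median differences of 0.202 and 6.08 (0.270 and 8.67 without that mouse). Outside promoters the contexts were closer, with 34 septin sites in CCGG at a median level of 73.6% and a median difference of 8.21, and 72 others at 63.5% and 9.07 (11.7 and 12.6 without DIO-HFD replicate 1). Outside promoters the tested sites of the whole table had median levels of 78.7% in CCGG and 73.3% elsewhere. Their median differences were 4.46 and 6.58 percentage points (6.09 and 9.13 without DIO-HFD replicate 1). At the second Sept9 start, chr11:117232358 averaged 25.6% ± 21.8 in DIO-HFD and 52.2% ± 4.83 in DIO-VSG, whereas the CCGG site 5 bp further on, chr11:117232363, had 74.5% ± 3.71 and 83.8% ± 2.32. Of 39 pairs of adjacent septin sites within 50 bp and both outside CCGG, the median difference in level was 3.68 percentage points, and 38 had the same sign of the difference between DIO-VSG and DIO-HFD, with or without DIO-HFD replicate 1. With 1 of the 2 sites in CCGG, the median difference in level was 17.2 over 22 pairs, and with both in CCGG it was 18.7 over 3 pairs. The part that the cut site has in these levels was not tested. The third Sept9 start, the Sept7 site at chr9:25252715 and the named sites of Sept3, Sept5, Sept8 and Sept11 all lie in CCGG.

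Promoter sequences were held for 9 septin symbols by the RefSeq table of GRCm38.p6, 19 windows from 250 bases before to 50 after a start. The letters CCGG, which read the same on both strands, were found in 14 of them (73.7%, against 52.8% of 32832 other promoters). The median number of CpGs in a window was 15, against 7 in the others. Septin2 and Septin10 windows held up to 36 and 30 CpGs, and neither gene had a site with its symbol in the methylation table.

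A list of 21 genes that act with septins was also counted, such as the Cdc42 effector proteins, which bind septins, and Rock2, Myh9, Actb and Actg1 of the actomyosin ring. The list covered 9 genes with a site, 94 sites in all, of which 79 were tested, and Cdc42ep1 and Cdc42ep4 held 30 and 34 of the 94, so the counts weigh these genes most. Between DIO-VSG and DIO-HFD, 32 were higher and 2 lower at an unadjusted p under 0.05 (43.0%, against 25.0% of all sites). Relative to DIO-HFD, 8 were higher and 0 lower in CON-LFD (10.1%, against 7.76% of all sites), and 10 higher and 0 lower in DIO-LFD (12.7%, against 10.1%). Between DIO-VSG and DIO-LFD 4 were higher and 1 lower (6.33%, against 3.98%). The limma adjusted p passed 0.05 at 0 of the 79 in all 4 comparisons with all mice, and at 43 higher and 4 lower sites between DIO-VSG and DIO-HFD without replicate 1, where 28.8% of all sites were higher and 5.62% lower. Without that mouse it also passed at 31 higher and 1 lower sites in CON-LFD (9.67% and 2.3% of all sites). In DIO-LFD it passed at 31 higher and 2 lower sites (12.1% and 2.42%), and between DIO-VSG and DIO-LFD at 0 (0.00457%).

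Methylation gives no direct check of the tissue, and few markers of cell types had a site. Of 8 adipocyte markers, 2 had a site: the Pparg promoter had mean levels from 0 to 6.81% across groups, and Adipoq, outside its promoter, from 90.7% to 94.1%. Of 6 epithelial markers, 5 had a site, of 6 leukocyte markers, 2, and of 2 endothelial markers, both. Between DIO-VSG and DIO-HFD, of 10 epithelial sites tested 1 was higher and 2 were lower at an unadjusted p under 0.05, of 2 leukocyte sites 1 was lower, of 4 endothelial sites 2 were higher, and of 2 adipocyte sites 0 passed. Of all sites in the table, 20.2% were higher and 4.85% lower at this threshold. Without DIO-HFD replicate 1, 3 epithelial sites were lower, 1 leukocyte site higher and 2 endothelial sites higher at the limma adjusted threshold, where 28.8% of all sites were higher and 5.62% lower. Among markers with a single site, the DIO-VSG and DIO-HFD mice did not overlap at 3, in both directions. Of all tested sites, 5.55% were higher and 2.03% lower in DIO-VSG without overlap. The Pecam1 site, of an endothelial marker, had 26.7%, 19.2%, 12.2% and 11.9% in DIO-HFD and 37.6%, 53.7%, 35.4% and 27.5% in DIO-VSG. The Epcam site, of an epithelial marker, was higher in DIO-VSG (63.3% to 73.1%) than in DIO-HFD (55.1% to 60.3%), and the Cd3e site, of a T cell marker, was lower (49.2% to 69.4%, against 73.2% to 92.0%). Other members of these lists went both ways, with overlapping groups. Krt8 (48.8% in DIO-VSG, 60.3% in DIO-HFD) and Cdh1 had lower means in DIO-VSG, and Krt18 and Krt5 higher ones. The Adgre1 site, of another leukocyte marker, had a higher mean in DIO-VSG (98.0%, against 90.1%). The part of cell composition in the septin differences was not tested.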

How the data were processed

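RRBS had been made from genomic DNA cut with MspI, which cuts at CCGG. Reads were aligned to mm10 with Bismark, per the processing notes of the submitters, and calls were made with methylKit, per the methods of the study, which also name the removal of 2 outlier mice (1 CON-LFD, 1 DIO-LFD). The authors deposited the methylation level of each site and mouse as a fraction from 0 to 1, with no coverage, so the depth is unknown and no intervals were computed. Levels are printed as percent. Groups came from the sample labels, and 0 columns of other samples were present.

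The methods name a removal of sites with an SD under 0.05, but the deposited table holds such sites, so the filter was applied here and left 65610 sites. With b the level as a fraction, the test used M = log2((b + 0.01)/(1 - b + 0.01)). The methods do not name a test. The 4 groups were fitted in 1 limma 3.58.1 model (R 4.3.3; eBayes without trend or robust), two-sided, with Benjamini-Hochberg adjustment over all these sites. The fit was tested on simulated data. Gene and block means are descriptions over tested sites, with the SD between mice and no test.

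The septin members, the lists of septin partners and of cell markers, the blocks and the printed stretches were chosen with earlier results of these data known. The sites named were, per comparison, the 3 septin sites with the smallest p, and per gene the site nearest to a start. chr9:25252719, chr11:117232358, chr11:117232363, chr7:127214963, chr11:53507147, chr15:82275115 and the sites of Pparg, Adipoq, Pecam1, Epcam, Cd3e, Krt8, Cdh1, Krt18, Krt5 and Adgre1 were named after their values were seen. Positions were checked against GENCODE M21, and contexts were read with pysam 0.24.0 in Python 3.11.15 (pandas 2.3.3, NumPy 2.4.6). Figures were drawn with Matplotlib 3.10.9. Other settings tried were 0.1 as the offset, levels used directly, eBayes with trend and robust, fits restricted to the pair of groups, centring of each mouse, no SD filter or a minimum of 0.1, medians over sites, a block for the replicate number, and omission of single mice.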

Additional observations from a re-analysis of the deposited data

Results flagged for a closer look

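In groups of 4 mice, the most extreme mouse was checked for a gap to its nearest neighbour that took up more of the range of the group than Dixon's critical value, which chance exceeds in about 1 in 20 groups. Of 110 such groups, 17 went past it, where chance gives 5.5, and 16 of them were in DIO-HFD. For the mean over all tested sites the share was 0.953 in DIO-HFD, for all septin sites 0.858, for septin sites outside Sept9 0.918, for Sept1 0.909, for Sept5 0.967, for Sept9 0.845 and for Sept9 outside promoters 0.846. It was 0.896 at the second Sept9 start, whose sites are those of the block there (0.896). For the Sept9 blocks from chr11:117265562, chr11:117285397, chr11:117312609 and chr11:117353469 it was 0.940, 0.842, 0.836 and 0.833. For the Sept5 block from chr16:18628852 it was 0.962, and at the single sites chr7:127214965 and chr11:117232283 it was 0.942 and 0.907. In each of these the mouse apart was DIO-HFD replicate 1, which was higher than the others. The other case was the Sept5 block from chr16:18626641 in DIO-VSG (0.859), where replicate 4 had 70.7% and the others 65.4% to 66.2%. The groups overlap in their sites and are not separate checks.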

How the results depend on the processing

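With all mice, 0 septin sites passed the limma adjusted threshold in any comparison under the offset of 0.1, the level in place of M, trend and robust, a fit of the 2 groups compared, centring, no SD filter or an SD of at least 0.1. Leaving out single mice gave 0 to 39 such sites for CON-LFD against DIO-HFD, 0 to 45 in DIO-LFD, 0 to 82 in DIO-VSG, and 0 to 0 between DIO-VSG and DIO-LFD, and the high counts all came without DIO-HFD replicate 1. Sites at an unadjusted p under 0.05 numbered 5 to 61, 5 to 68, 35 to 98 and 0 to 8 without single mice. For DIO-VSG against DIO-HFD these were 37 and 38 without DIO-VSG replicates 1 and 4, and 98, 38, 35 and 36 without DIO-HFD replicates 1 to 4. The same fits put 17.9%, 18.7%, 44.9%, 14.4%, 14.6% and 14.9% of all tested sites at this threshold. Between CON-LFD and DIO-HFD they were 5, 7 and 26 without CON-LFD replicates 1 to 3, 9 without DIO-VSG replicate 1, and 61, 8, 5 and 5 without DIO-HFD replicates 1 to 4. Between DIO-LFD and DIO-HFD they were 6 without DIO-LFD replicate 1, and 68, 9, 5 and 8 without DIO-HFD replicates 1 to 4. Between DIO-VSG and DIO-LFD they were 8, 0 and 5 without DIO-LFD replicates 1 to 3, 5 without DIO-HFD replicate 1, and 1 without CON-LFD replicate 2, DIO-VSG replicate 3 or 4, or DIO-HFD replicate 2, 3 or 4. Over all tested sites the shares in these 3 comparisons ran from 3.98% to 30.9%, from 5.83% to 32.6% and from 3.35% to 6.77%. Mean differences ranged from 3.14 to 7.12, 3.90 to 7.88, 4.70 to 8.69 and 0.258 to 1.64 percentage points.

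For CON-LFD the count at an unadjusted p under 0.05 was 2 in a fit of the 2 groups and 3 with an SD of at least 0.1. Over the whole table these fits gave 2726 of 65610 and 1146 of 15066 sites. For DIO-LFD it was 26 with the level in place of M, 3 with the 2 groups and 7 with an SD of at least 0.1. The whole table gave 7990 and 3070 of 65610 and 1779 of 15066 sites. For DIO-VSG it was 24 with an SD of at least 0.1, where 5994 of 15066 sites of the whole table passed. For DIO-VSG against DIO-LFD it was 1 with the offset of 0.1, 7 with the 2 groups, 1 with centring and 0 with an SD of at least 0.1. The whole table gave 2511, 3898 and 3049 of 65610 and 527 of 15066 sites. With an SD of at least 0.1 the mean differences were 9.07, 10.6, 14.6 and 4.04 percentage points, over fewer sites. With each mouse taken minus its mean over all tested sites, the differences from DIO-HFD were 1.01 in CON-LFD, 1.67 in DIO-LFD and 1.02 in DIO-VSG. Between DIO-VSG and DIO-LFD the difference was then -0.656. Between DIO-VSG and DIO-HFD, chr16:18630019 of Sept5 reversed with centring (-0.11 in M) and without DIO-VSG replicate 3 or 4 (-0.16 each) or DIO-HFD replicate 4 (-0.67), with a range of -0.67 to 1.03 without single mice, and chr11:53519802 of Sept8 reversed without DIO-VSG replicate 2 (0.10, range -0.26 to 0.10). Each named site was followed in the comparison that named it, and the sites nearest to a start in DIO-VSG against DIO-HFD. Of these tests, 11 passed the adjusted threshold without DIO-HFD replicate 1 and under no other setting. Some of the same sites also passed without that mouse in comparisons not followed here. At chr11:117232283 the limma adjusted p was 0.0139 for CON-LFD and 0.0110 for DIO-LFD against DIO-HFD. The causes were not tested.

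The replicate numbers only name mice and do not pair them: same-numbered mice of different groups are different animals, and the correlation of their deviations from the group means ran from -0.0804 to 0.202. With the replicate number as a block, the counts at an unadjusted p under 0.05 were 11, 17, 67 and 5, and 0 septin sites passed the adjusted threshold. Over the whole table the same fit gave 4914, 6119, 18113 and 2938 of 65610 sites at an unadjusted p under 0.05.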
